A study of Mus musculus with 8 samples.

Results

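Claudins are membrane proteins of the tight junction, the belt that closes the space between neighboring epithelial cells. Sealing claudins narrow that space, pore-forming claudins open charge- or size-selective paths through it, and the balance of the 2 kinds sets how ions and water cross the colonic epithelium between cells. Their messenger levels also vary with position, because some claudins are known to be more abundant in the crypt and others toward the luminal surface. Expression of 9 claudin genes, Cldn1, Cldn2, Cldn3, Cldn4, Cldn7, Cldn8, Cldn12, Cldn15, and Cldn23, was examined by taking every probe set annotated to 1 of these genes and to no other gene. These were 17 probe sets of the 45037 on the array that are not controls, and 9 of the 18193 genes that the array names singly. Of the 17, 10 belonged to claudins known as sealing (Cldn1, Cldn3, Cldn4, and Cldn8), 3 to claudins known as pore-forming (Cldn2 and Cldn15), and 4 to claudins of unsettled or other role (Cldn7, Cldn12, and Cldn23).

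The comparison was between colonic epithelial cells of 4 mice colonized with BTWT, which is Bacteroides thetaiotaomicron with its MAFF locus, and of 4 mice colonized with BTDMAFF (BTΔMAFF), the mutant of the same bacterium that lacks this locus. All 8 were male C57BL/6 mice kept under specific pathogen-free conditions that had received metronidazole and ciprofloxacin before colonization, so antibiotic treatment was common to both groups. Colonization took place at an age of 8 wk, and the cells were taken 4 wk afterward, at 12 wk. Viable EpCAM+ cells without CD45 were sorted to a purity of 90 to 95%, their RNA was amplified, and each mouse gave 1 Affymetrix mouse genome array. The question was which genes of the colonic epithelium differ with the presence of MAFF in the colonizing strain.

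All values below are on the log2 scale and centered, because the authors subtracted from each probe set its median over the 8 arrays. A value therefore says how far a mouse lies from the middle of the 8 mice and holds no level, so the abundance of 1 claudin cannot be set against that of another. Differences are BTWT minus BTDMAFF. As whole sorted populations were measured, fewer cells of a type and less RNA per cell cannot be told apart. The BTWT replicate 2 and BTDMAFF replicate 4 arrays stood apart from the other 6 on principal component 1 (29.4% of the variance). Epcam, which encodes the sorting marker, differed by 0.10 (SE 0.23), and Ptprc, which encodes CD45, differed by -0.01 (SE 0.03). Neither passed an unadjusted p of 0.05.

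Of the 17 claudin probe sets, 0 passed an adjusted p of 0.05 in limma, beside 0% of all probe sets. At an unadjusted p of 0.05, 1 of 17 passed, that of Cldn8, beside 5.1% of all probe sets (2.24% higher and 2.86% lower in BTWT). The same probe set was the only claudin past a fold change of 2 with an unadjusted p of 0.05, the thresholds of the study's methods, which 0.548% of all probe sets passed. It was also the only claudin probe set whose groups did not overlap, as those of 2.83% of all probe sets did not (1.27% with BTWT higher). Leaving out BTDMAFF replicate 1 raised the number at an unadjusted p of 0.05 to 4, with Cldn2 (both probe sets) and Cldn12 added, beside 5.77% of all probe sets in that fit. Leaving out BTWT replicate 1 or BTWT replicate 2 raised it to 2, with Cldn23 and Cldn12 added, respectively, beside 4.32% and 5.06% of all probe sets. Groups of 5 probe sets did not overlap without BTDMAFF replicate 4, those of Cldn8 and the 4 of Cldn1, but neither did those of 42.9% of all probe sets. Without BTDMAFF replicate 1 they were 3 (Cldn8 and both of Cldn2, beside 5.20% of all probe sets). Without BTWT replicate 1 or BTWT replicate 2 they were 2, again with Cldn23 and Cldn12 added, beside 4.01% and 4.70%. By role, the median difference was -0.019 over the 10 sealing probe sets, of which 5 were positive and 5 negative. Cldn1 alone gave 4 of the positive and Cldn3 4 of the negative ones, so this median says little about sealing claudins as a class. By gene, 2 sealing claudins were positive and 2 negative. The median was 0.59 over the 3 pore-forming and 0.30 over the 4 other probe sets, all positive. Of all 45037 probe sets, 31474 were positive and 13563 negative, so a positive sign was common on these arrays. Cldn2 and Cldn12 each gave 2 of these claudin probe sets. The median over all 17 was 0.024 and that over all probe sets of the arrays 0.018.

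**Figure D1:**
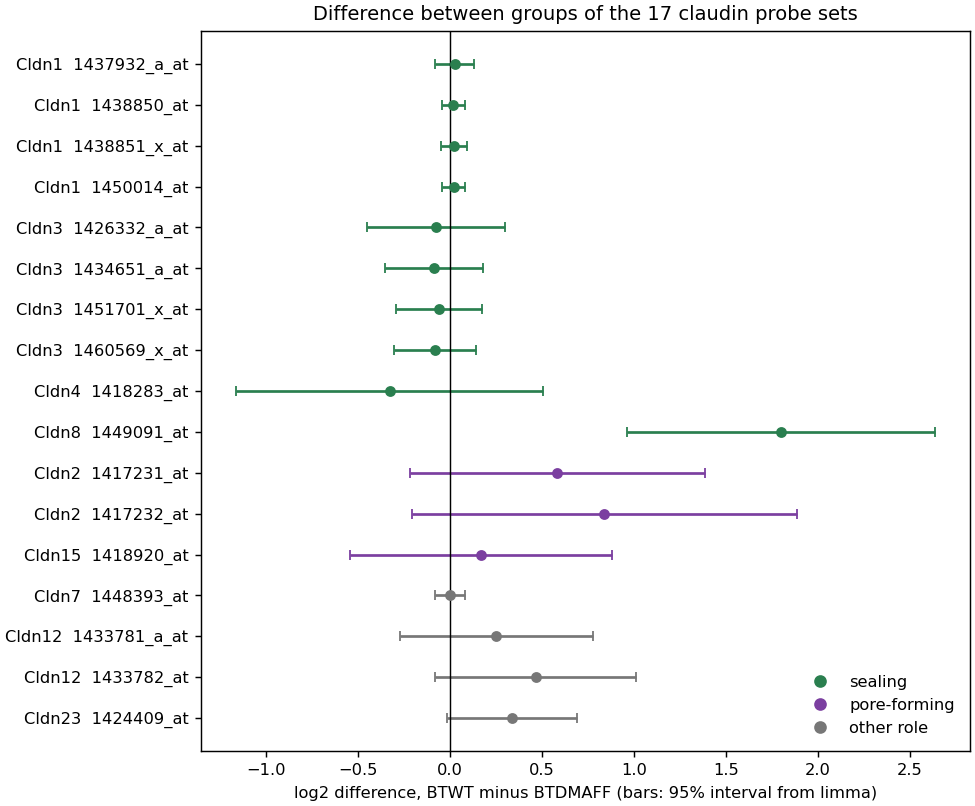
Difference between BTWT and BTDMAFF of the 17 claudin probe sets on the log2 scale (horizontal axis), with points for limma's estimate, bars for its 95% interval, and colors for the role of the claudin. The interval of Cldn8, 0.96 to 2.64, lies to the right of 0, and those of the other 16 probe sets include 0.

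Cldn8, a sealing claudin of the distal colon and the kidney collecting duct that is known in the kidney to bring Cldn4 into the junction, was the claudin that separated the groups. The values of its single probe set, 1449091_at, were 0.72, 0.55, 0.42, and 0.35 in the BTWT mice and -1.14, -1.55, -2.12, and -0.35 in the BTDMAFF mice. All 4 BTWT mice lay above all 4 BTDMAFF mice, with a gap of 0.69 between the lowest BTWT and the highest BTDMAFF value. The mean was 0.51 ± 0.17 (SD, n = 4) in BTWT and -1.29 ± 0.75 (SD, n = 4) in BTDMAFF. The difference was 1.80 (SE 0.35, 95% interval 0.96 to 2.64), a level 3.48-fold higher in BTWT, with an unadjusted p of 0.0014 and an adjusted p of 0.354 from limma. It ranked at position 178 of the 45037 probe sets by p, and the spread of Cldn8 over the 8 mice was larger than that of 99.7% of all probe sets. The study had already picked Cldn8 as higher in BTWT on these same arrays, so its direction here is not independent evidence.

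The size of the Cldn8 difference did not rest on 1 mouse. When each array was left out in turn, the difference of Cldn8 stayed between 1.52, without BTDMAFF replicate 3, and 2.11, without BTDMAFF replicate 4. The unadjusted p from limma was at most 0.0051 in these 8 fits. Groups that are apart with all arrays stay apart when an array is left out, so non-overlap was no check here. Without both arrays that stood apart, the difference was 2.10 with an adjusted p of 0.272. The adjusted p passed the threshold only when limma weighted the arrays by their quality, where it was 0.0144 for a difference of 1.99. Under those weights 510 of all 45037 probe sets passed an adjusted p of 0.05, and 25.6% passed an unadjusted p of 0.05. The lowest weight, 0.12, went to BTDMAFF replicate 4, the BTDMAFF mouse nearest to the BTWT mice for Cldn8 (-0.35).

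**Figure D2:**
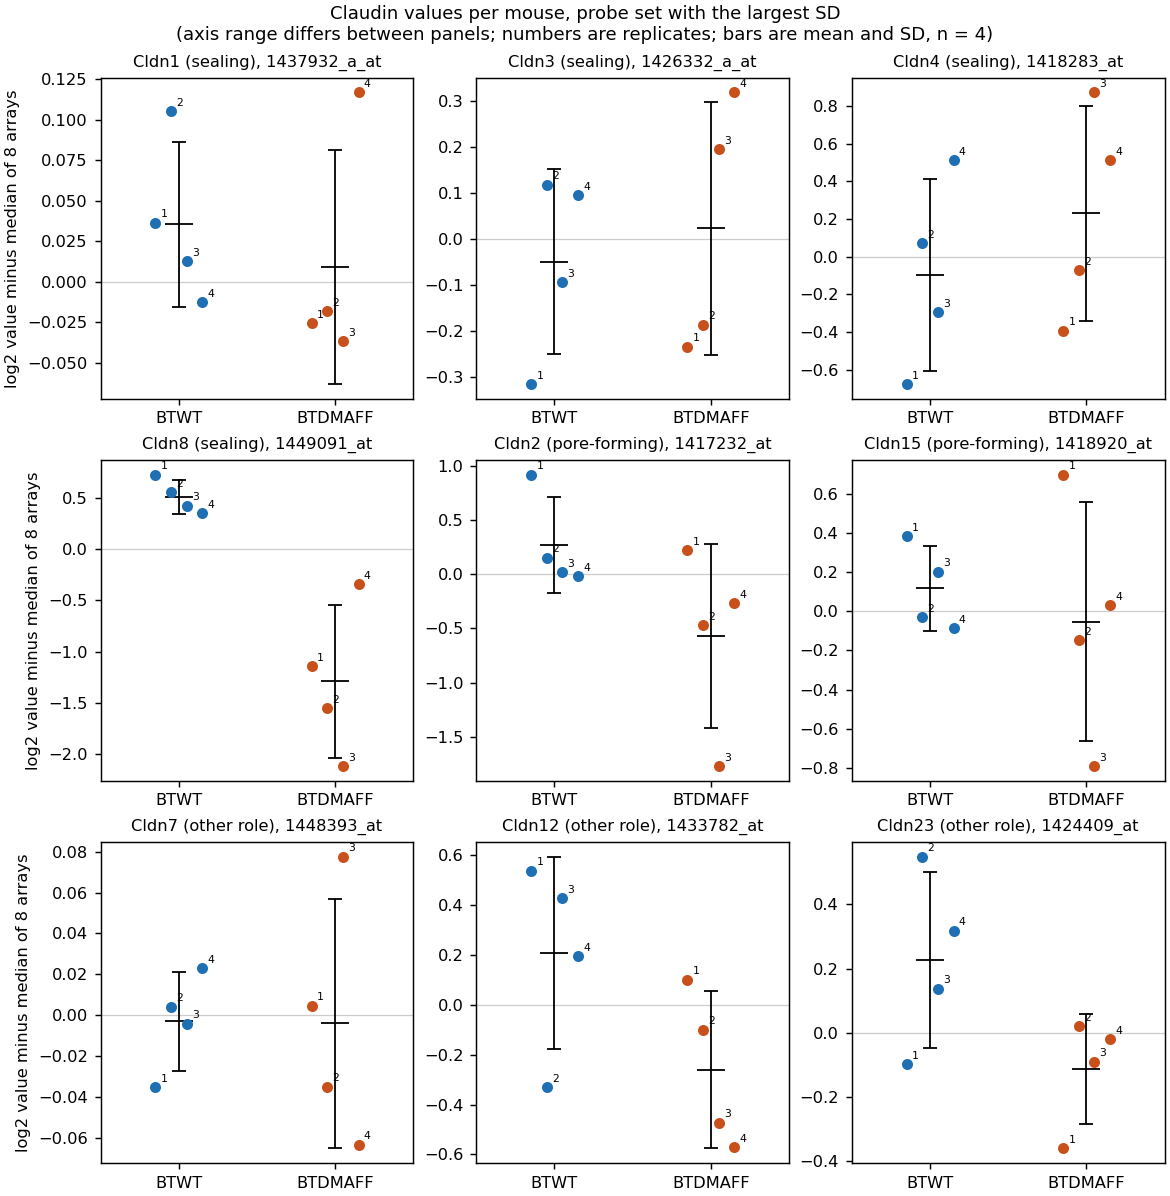
Centered log2 value of the 9 claudin genes in each mouse, BTWT on the left and BTDMAFF on the right of each panel, from the most variable probe set of the gene, with bars for the mean and SD (n = 4). The vertical range differs between panels, and Cldn8, where BTWT lies between 0.35 and 0.72 and BTDMAFF between -2.12 and -0.35, is the panel without overlap.

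The other sealing claudins did not separate the groups. Cldn4, which seals against cations and is abundant in surface colonocytes, has 1 probe set, 1418283_at. Its values were -0.68, 0.07, -0.29, and 0.51 in BTWT and -0.39, -0.07, 0.87, and 0.51 in BTDMAFF, so each group held low and high mice. The difference was -0.33 (SE 0.35), with a 95% interval of -1.16 to 0.51 and an unadjusted p of 0.386 from limma. This interval is wide, so neither a lower nor a higher level of Cldn4 in BTWT was settled by these 8 mice.

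Cldn3, a general sealing claudin of the intestine, is read by 4 probe sets. In 1426332_a_at, the 1 with the largest SD, the values were -0.32, 0.12, -0.09, and 0.09 in BTWT and -0.23, -0.19, 0.19, and 0.32 in BTDMAFF. The groups overlapped over most of their range. Differences of the 4 probe sets ran from -0.087 to -0.058, with unadjusted p between 0.426 and 0.661 from limma. Their values correlated with r of 0.74 to 0.93 over the 8 mice, so they ranked the mice in a like way. The sign of 3 of the 4 turned without BTWT replicate 1, the lowest mouse, to values of 0.0081 to 0.016.

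Cldn1, a sealing claudin of the skin and many other epithelia, hardly varied. In 1437932_a_at the BTWT values were 0.037, 0.11, 0.013, and -0.013, and the BTDMAFF values -0.026, -0.018, -0.037, and 0.12. The 3 other probe sets stayed between -0.040 and 0.060 in every mouse. The differences of the 4 were 0.020 to 0.026 with an adjusted p of 0.828 each. These small values followed the offset of the whole array. The median of all probe sets on an array ranged from -0.030 in BTDMAFF replicate 3 to 0.041 in BTDMAFF replicate 4, and the Cldn1 probe sets correlated with it over the 8 arrays with r of 0.976 to 1.000. Once this median was subtracted, the SD of the 4 probe sets over the arrays was 0.005 to 0.035.

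The pore-forming claudins had higher means in BTWT, but none passed the test. Cldn2 forms a pore for cations and water and is known from the crypt compartment. Its probe set 1417232_at gave 0.92, 0.15, 0.018, and -0.018 in BTWT and 0.22, -0.47, -1.77, and -0.27 in BTDMAFF. BTDMAFF replicate 1 lay above 3 of the 4 BTWT mice, and BTDMAFF replicate 3 was far below all others. The difference was 0.84 (SE 0.44, 95% interval -0.21 to 1.89), 1.79-fold, with an unadjusted p of 0.0999 from limma. The second probe set, 1417231_at, gave 0.52, -0.080, 0.36, and 0.080 in BTWT and 0.35, -0.11, -1.27, and -0.43 in BTDMAFF. It ordered the mice much as the first did (r = 0.93), and its difference was 0.59 (SE 0.34, unadjusted p = 0.129).

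Single mice weighed heavily on Cldn2. Without BTDMAFF replicate 1, its differences were 1.10 and 0.82 for 1417232_at and 1417231_at, with unadjusted p of 0.0419 and 0.0339 from limma, and the groups did not overlap. Without BTDMAFF replicate 3, they were 0.44 and 0.28. The adjusted p was at least 0.354 in every fit that left out an array for the second probe set and at least 0.317 for the first.

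Cldn15 forms a sodium pore and is known above all from the small intestine and from proliferating crypt cells. Its values were 0.38, -0.030, 0.20, and -0.086 in BTWT and 0.70, -0.15, -0.79, and 0.030 in BTDMAFF. The highest and the lowest of the 8 mice were thus both BTDMAFF mice, replicates 1 and 3. The difference was 0.17 (SE 0.30, unadjusted p = 0.589 from limma), and it was -0.076 without BTDMAFF replicate 3.

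Among claudins of other role, Cldn23 and Cldn12 had the smallest p after Cldn8. Cldn23 is a little-studied claudin known from the luminal side of the colonic crypt. Its values were -0.097, 0.55, 0.14, and 0.32 in BTWT and -0.36, 0.020, -0.091, and -0.020 in BTDMAFF. BTWT replicate 1 lay below 3 BTDMAFF mice, and the 3 other BTWT mice lay above all of them. The difference was 0.34 (SE 0.15, 95% interval -0.016 to 0.69) with an unadjusted p of 0.0583 from limma. It was 0.45 with an unadjusted p of 0.0139 without BTWT replicate 1.

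Cldn12 has been linked with Cldn2 to calcium passage between intestinal cells. Its probe set 1433782_at gave 0.54, -0.33, 0.43, and 0.19 in BTWT and 0.099, -0.099, -0.47, and -0.57 in BTDMAFF. BTWT replicate 2 lay among the low BTDMAFF mice, and the 3 other BTWT mice lay above them. The difference was 0.47 (SE 0.23, unadjusted p = 0.0822 from limma) with all arrays and 0.65 (unadjusted p = 0.0134) without BTWT replicate 2. The second probe set, 1433781_a_at, had a difference of 0.25 (SE 0.22, unadjusted p = 0.290) and correlated with the first at r = 0.78.

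Cldn7, which lies along the lateral membrane and binds the EpCAM protein used for the sort, was nearly flat. Its values lay between -0.035 and 0.023 in BTWT and between -0.063 and 0.078 in BTDMAFF. The difference was 0.0010 (SE 0.035, adjusted p = 0.989 from limma), with a 95% interval of -0.082 to 0.084. It became -0.026 after quantile normalization and -0.017 after each array was centered on its median, so it had no settled sign.

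Some pairs of claudins also moved with each other from mouse to mouse, within as well as across the groups. Others hardly did, such as Cldn1 with Cldn4 (r = -0.0012, 0.08 within groups) and Cldn7 with Cldn23 (0.07, 0.08 within groups). For 36 pairs of the 9 genes, each by its most variable probe set, correlations were computed over the 8 mice. They are given as descriptions without a test, since the 8 points share 1 array per mouse, the array offset, and the mixture of cells in the sort. Cldn3 and Cldn4 had the highest correlation (r = 0.89, Spearman's rho = 0.86), which was also 0.89 after group means were removed and 0.86 without the 2 mice farthest from the Cldn3 median. Among the 18192 other genes, 28 correlated more highly with Cldn3 than Cldn4 did, and 18 correlated more highly with Cldn4 than Cldn3 did. Cldn3 and Cldn4 are neighbors on chromosome 5, with 0 annotated genes between them in the RefSeq annotation of GRCm38.p6.

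The pore-forming pair, Cldn2 and Cldn15, correlated next highest (r = 0.86, rho = 0.86, 0.92 within groups), with r of 0.63 without the 2 mice farthest from the Cldn2 median. Of the 18192 other genes, 160 correlated more highly with Cldn2 than Cldn15 did. Sealing Cldn4 ran opposite to the pore-forming claudins. Its r was -0.82 with Cldn15 (rho = -0.81, -0.81 within groups) and -0.80 with Cldn2 (rho = -0.79, -0.79 within groups). Among the other genes, 198 had a lower r with Cldn4 than Cldn15 did, and 277 a lower r than Cldn2 did. Without the 2 mice farthest from the Cldn4 median, r was -0.65 with Cldn15 and -0.34 with Cldn2. The second was thus much weaker among the other 6 mice, though leaving out extreme mice narrows the range, which tends to weaken r. For Cldn4 with Cldn2, r was -0.78 within BTWT, -0.83 within BTDMAFF, and -0.85 without the 2 arrays that stood apart. Cldn12 ran with the pore-forming side, at r of -0.79 with Cldn3 and -0.75 with Cldn4 (rho = -0.81 and -0.67), falling to -0.54 and -0.51 without the 2 farthest mice. A lower r than that of Cldn12 was found for 477 genes with Cldn3 and for 493 with Cldn4. Cldn8 had r of 0.78 with Cldn2 (rho = 0.76, 0.72 within groups, 0.35 without the 2 farthest mice), and 270 genes correlated more highly with Cldn8 than Cldn2 did. With the other sealing claudins the r of Cldn8 was -0.41 for Cldn4, -0.10 for Cldn3, and 0.55 for Cldn1. This Cldn1 probe set followed the array median (r = 0.976), with which Cldn8 had r = 0.696. Of all other genes, 45.8% correlated more highly with Cldn1 than Cldn8 did.

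**Figure D3:**
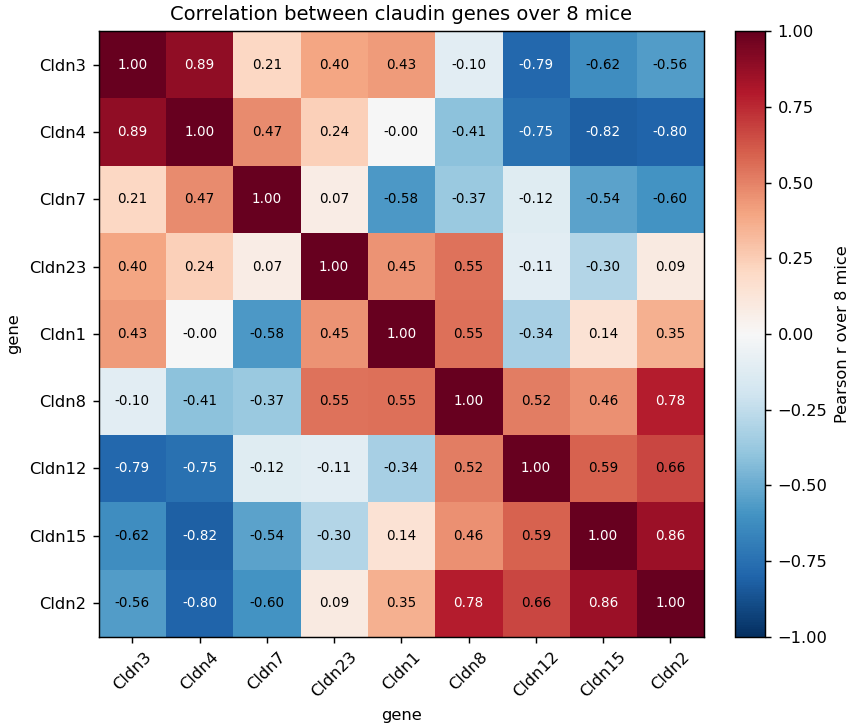
Pearson correlation of the 9 claudin genes over the 8 mice, with red for positive and blue for negative values and the gene names on both axes. Cldn3 and Cldn4 (0.89) form a block at the upper left, Cldn2 and Cldn15 (0.86) at the lower right, and the pairs of Cldn4 with Cldn15 (-0.82) and Cldn2 (-0.80) are negative.

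The stretches just before the RefSeq starts of these 2 pairs are shown because their members moved together. Each holds the 250 bases before the start in GRCm38.p6, read 5′ to 3′ on the strand of the gene. Capitals mark matches, on either strand, to a set of 5 short motifs. The first, CAGGTG, is an E-box bound by the Snail proteins, which are known to repress some claudins during loss of the epithelial state. The second, TGANTCA, is the site bound by Fos and Jun proteins, here called the AP-1 site. The third, GGGCGG, is the box bound by Sp1 and related proteins, here called the Sp box. The fourth, TATAAA, is the sequence that positions the start of many promoters, known by its own letters. The fifth, TTTAT, is the core bound by the intestinal factors Cdx1 and Cdx2, here called the CDX core.
Cldn3, chr5:134985964-134986213, plus strand: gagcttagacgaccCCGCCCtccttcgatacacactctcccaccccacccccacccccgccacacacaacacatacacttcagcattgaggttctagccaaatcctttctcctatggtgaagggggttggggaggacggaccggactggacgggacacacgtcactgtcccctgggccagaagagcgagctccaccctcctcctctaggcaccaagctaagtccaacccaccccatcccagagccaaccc
Cldn4, chr5:134946935-134947184, minus strand: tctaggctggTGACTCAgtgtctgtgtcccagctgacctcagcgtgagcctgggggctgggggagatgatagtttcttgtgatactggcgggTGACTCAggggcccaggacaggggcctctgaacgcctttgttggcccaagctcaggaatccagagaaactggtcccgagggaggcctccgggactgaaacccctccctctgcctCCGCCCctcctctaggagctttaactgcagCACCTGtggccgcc
Cldn2, chrX:139800558-139800807, plus strand: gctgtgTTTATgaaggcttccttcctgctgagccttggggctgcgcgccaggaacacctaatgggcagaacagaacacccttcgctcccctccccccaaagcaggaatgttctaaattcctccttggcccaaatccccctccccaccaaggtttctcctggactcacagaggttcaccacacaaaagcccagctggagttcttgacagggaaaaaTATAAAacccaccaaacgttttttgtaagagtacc
Cldn15, chr5:136967619-136967868, plus strand: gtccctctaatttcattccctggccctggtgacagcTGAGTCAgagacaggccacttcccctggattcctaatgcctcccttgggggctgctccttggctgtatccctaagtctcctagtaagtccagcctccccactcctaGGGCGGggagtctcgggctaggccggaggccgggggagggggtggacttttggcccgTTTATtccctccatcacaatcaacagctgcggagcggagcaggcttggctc

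Positions of the matches are counted back from the start. Cldn3 held an Sp box at -236. Cldn4 held AP-1 sites at -240 and -158, an Sp box at -44, and the E-box at -14. Cldn2 held a TATA box at -35 and CDX cores at -244 and -34, of which the match at -34 lies inside the TATA box. Cldn15 held an AP-1 site at -214, an Sp box at -108, and a CDX core at -51. Cldn3 and Cldn4 both held the Sp box, but so did 7 of the 10 windows of claudin genes, Cldn15 among them, and 32.7% of the 32851 RefSeq windows of this length. The CDX core was in the windows of Cldn2 and Cldn15, 2 of the 10, and in 37.3% of all windows. The shares were 17.2% for the E-box, 12.4% for the TATA box, and 6.75% for the AP-1 site. GC content was 60.8% for Cldn3, 62.0% for Cldn4, 60.8% for Cldn15, and 52.0% for Cldn2, beside a median of 52.4% over all windows. Promoter entries were matched for 7 of the 9 claudin genes. A match is a description of the letters and does not show that a factor binds.

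Because several claudins are graded along the crypt, lists of 11 crypt base and proliferation genes and 12 surface colonocyte genes were read on the same arrays. The mean of the crypt base list was 0.65, 0.095, 0.42, and 0.0043 in BTWT and 0.26, -0.27, -0.42, and -0.29 in BTDMAFF. BTDMAFF replicate 1 lay among the BTWT mice, and the 3 other BTDMAFF mice lay below all of these. Of the 11 genes, 3 were higher in BTWT at an unadjusted p of 0.05 in limma, 0 were lower, and 8 did not pass. Those 3 were Top2a, which encodes a topoisomerase of dividing cells (1.02), Ephb3, a receptor of crypt position (0.70), and Mki67, which encodes the proliferation marker Ki67 (0.60). The stem cell gene Lgr5 was at -0.12 (unadjusted p = 0.512). Of the surface list, Slc26a3, the chloride-bicarbonate exchanger (-0.48), Vil1, which encodes villin (-0.40), and Krt20, a keratin of mature cells (-0.32), were lower in BTWT, Ceacam20 was higher (0.38), and 8 did not pass. The background was 5.72% of all genes at an unadjusted p of 0.05, 2.35% higher and 3.37% lower. The adjusted p of these 7 genes was at least 0.243.

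Both blocks of claudins went with these lists over the 8 mice. With the mean of the crypt base list, Cldn12 had r = 0.86 (rho = 0.86, 0.77 within groups), Cldn2 0.84 (rho = 0.90, 0.74 within groups), and Cldn15 0.75 (rho = 0.79, 0.85 within groups). Cldn4 had r = -0.85 (rho = -0.86, -0.90 within groups) and Cldn3 -0.69 (rho = -0.76, -0.80 within groups). With the surface list the signs turned, with r of 0.79 for Cldn3, 0.72 for Cldn4, -0.87 for Cldn12, -0.72 for Cldn15, and -0.69 for Cldn2. Without the 2 farthest mice these were 0.68, 0.39, -0.81, -0.66, and -0.29, so those of Cldn4 and Cldn2 were much weaker among the other mice. Without the 2 farthest mice, r with the crypt base list was 0.76 for Cldn12, 0.80 for Cldn2, 0.88 for Cldn15, -0.65 for Cldn4, and -0.42 for Cldn3. Cldn8 had r = 0.70 with the crypt base list over all 8 mice (rho = 0.76), but 0.30 within groups and 0.34 without the 2 farthest mice, and -0.33 with the surface list. Cldn23 had r = -0.04 with the crypt base list over all mice and -0.86 within groups, the opposite side from Cldn2. The part of crypt position or cell mixture in the claudin values was not tested.

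**Figure D4:**
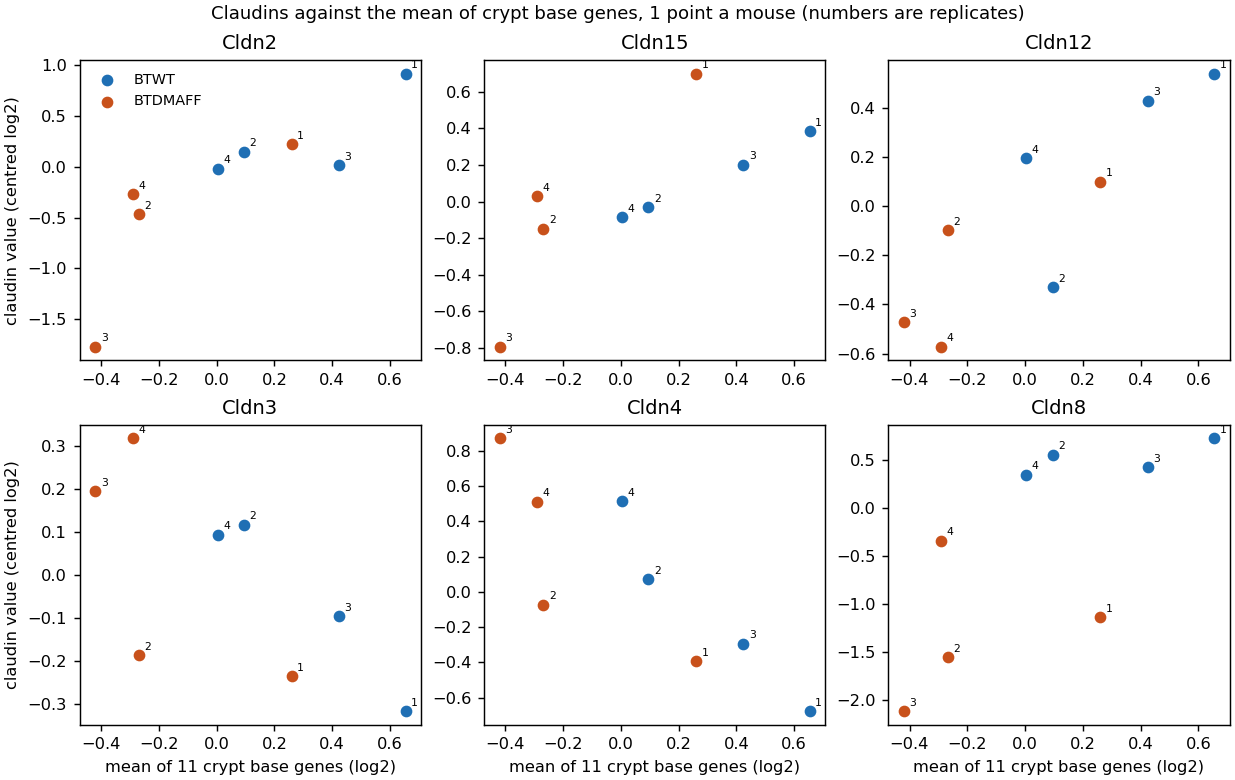
Centered log2 values of 6 claudins (vertical axis) against the mean of the 11 crypt base genes in the same mouse (horizontal axis), 1 point a mouse, blue for BTWT and orange for BTDMAFF. Cldn2, Cldn15, and Cldn12 rise along the axis (r = 0.84, 0.75, and 0.86), Cldn3 and Cldn4 fall (r = -0.69 and -0.85), and the Cldn8 values split by group (r = 0.70, 0.30 within groups).

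Colon position was read from 10 genes, markers of distal and of proximal colon together. Their differences ran from -0.84 to 0.52, 4 positive and 6 negative. Hoxb13, a homeobox gene of the distal colon, was -0.22, -1.05, -0.25, and -0.55 in BTWT and 0.38, 0.31, 0.22, and 0.36 in BTDMAFF. Its groups did not overlap, as for 3.14% of all genes, and its difference was -0.83 (SE 0.18, unadjusted p = 0.0026, adjusted p = 0.431 from limma). Hoxa13, of the same distal kind, differed by -0.77 (unadjusted p = 0.0138 from limma). The other 8 genes did not pass an unadjusted p of 0.05, which 5.72% of all genes passed. Cldn8 is itself known as more abundant distally. Cldn8 was higher in BTWT, and Hoxb13 and Hoxa13 were lower. Because the list mixes distal and proximal markers, its mixture of signs gives no direction of position. With the mean of this list, Cldn8 had r = 0.017 over all 8 mice (rho = 0.095) and 0.75 within groups. Without the 2 mice farthest from the Cldn8 median, r was -0.68. The part of colon position in the Cldn8 difference was not tested. Other cell types of the sort are given by their markers. Of 7 goblet cell genes, Agr2 was higher in BTWT (0.55), Clca1 (-0.90) and Fcgbp (-0.67) were lower, and 4 did not pass. These calls are at an unadjusted p of 0.05 in limma, beside 5.72% of all genes. The tuft cell channel gene Trpm5 was the only one of 8 enteroendocrine and tuft cell genes to pass the same threshold, at 0.46.

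Cells that the sort should have removed were read from 12 leukocyte, 7 endothelial, and 10 fibroblast and smooth muscle genes. Of these, 0 passed an unadjusted p of 0.05 in limma, beside 5.72% of all genes. The mean of the leukocyte list ran from -0.039 to 0.42 in BTWT and from -0.021 to 0.34 in BTDMAFF, and that of the endothelial list from -0.071 to 0.073 and from -0.051 to 0.095. The fibroblast list ran from -0.45 to 0.24 in BTWT and from -0.013 to 0.76 in BTDMAFF. Its Col3a1, a collagen gene, came nearest to the threshold at -1.14 (unadjusted p = 0.0523). Because the values are centered, no marker can be called absent. Their part in the claudin values was not tested.

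Other members of the family and of the junction were read from lists. Of 11 further claudins on the array, 0 passed an unadjusted p of 0.05, beside 5.72% of all genes, with a median difference of 0.020. Like those of Cldn1, their values followed the array median, with r of 0.815 to 0.998 for 10 of them and 0.662 for Cldn14. Of 14 membrane partners such as Ocln, which encodes occludin, 0 passed, with a median of 0.016. The pair of smallest p among them were Crb3, which encodes the polarity protein Crumbs3 (-0.21, unadjusted p = 0.147), and Cxadr, which encodes an adhesion receptor (0.22, unadjusted p = 0.441). Ocln itself differed by 0.10 (SE 0.13, unadjusted p = 0.442).

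Of 21 plaque and polarity genes, each by its most variable probe set, 1 was higher in BTWT, 0 were lower, and 20 did not pass, a share no larger than the 5.72% of all genes. Other probe sets passed, lower in BTWT, for the polarity scaffold genes Patj (2 of 4) and Mpp5 (2 of 3), and higher in BTWT for Ybx3 (1 of 2). The 1 gene counted was Cgnl1, which encodes paracingulin, a plaque protein that ties the junction to the cytoskeleton. Its values were 0.73, 0.69, 0.37, and -0.26 in BTWT and -0.58, -0.54, -0.13, and 0.13 in BTDMAFF, so BTWT replicate 4 lay within the BTDMAFF range. The difference was 0.66 (SE 0.26, unadjusted p = 0.0407, adjusted p = 0.828 from limma), with 5 of 5 probe sets of the same sign but only 1 of 5 past an unadjusted p of 0.05. It passed an unadjusted p of 0.05 in 2 of the 8 fits that left out an array, those without BTWT replicate 4 (0.87) and without BTDMAFF replicate 4 (0.79). Tjp1, which encodes ZO-1, the scaffold that claudins bind, differed by -0.17 (unadjusted p = 0.0515), and it passed at -0.18 (unadjusted p = 0.0265) once each array was centered on its median. The median over the 21 genes was -0.061.

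**Figure D5:**
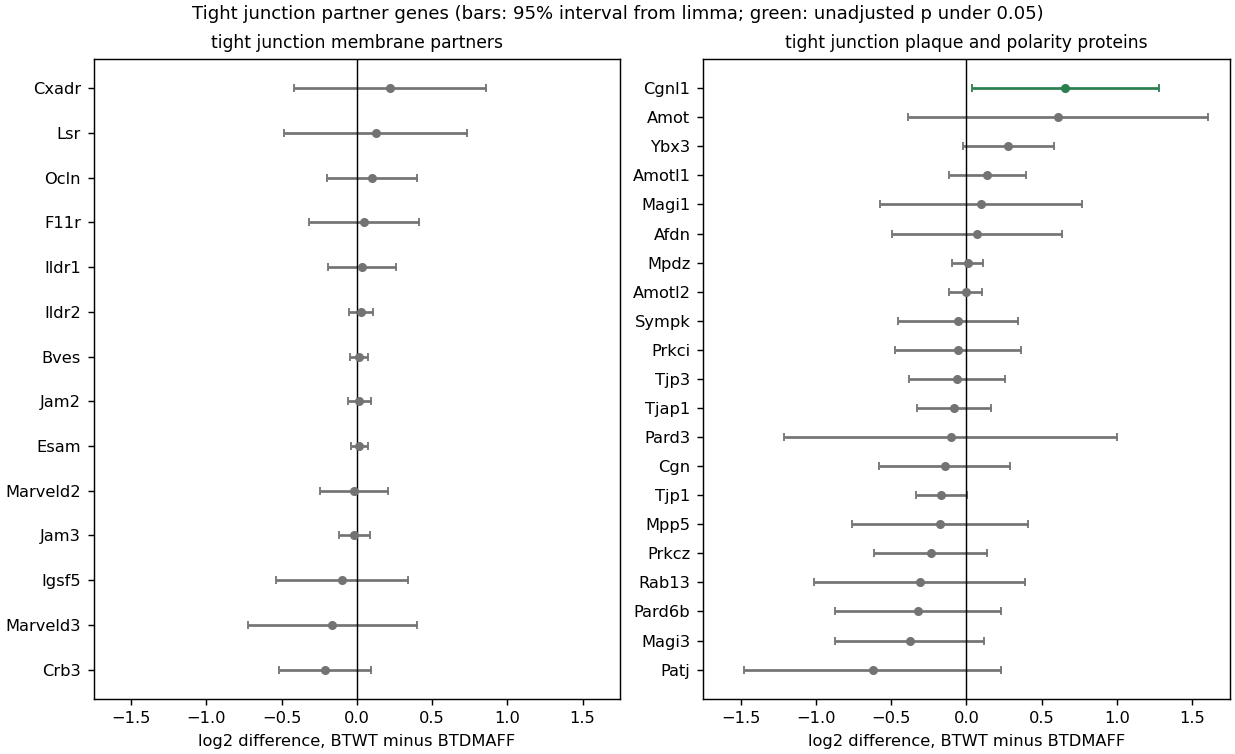
Difference between BTWT and BTDMAFF on the log2 scale (horizontal axis) of 14 membrane partners (left) and 21 plaque and polarity genes (right) of the tight junction, with bars for limma's 95% interval. Cgnl1, at 0.66 and in green, is the gene whose interval leaves out 0.

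Claudin-binding proteins, proteases, and kinases gave 1 of 15 genes at an unadjusted p of 0.05, adherens junction genes 1 of 9, and transcription factors of the intestine 1 of 15, with 5.72% of all genes as background. Counts this small do not set these lists apart from the background. Tspan8, a tetraspanin of the epithelial surface, was 0.052, 0.22, 0.66, and 0.50 in BTWT and -0.93, -0.26, -0.052, and -0.96 in BTDMAFF. The groups did not overlap, and the difference was 0.91 (SE 0.25, unadjusted p = 0.0082, adjusted p = 0.623 from limma). Of 9 adherens junction genes, Nectin3, an adhesion receptor, was higher in BTWT (0.93, unadjusted p = 0.0336), and 8 did not pass. Of 15 transcription factors of the intestine, Nr3c2, which encodes the mineralocorticoid receptor, was lower in BTWT (-0.33, unadjusted p = 0.0169), and 14 did not pass.

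Genes with the pattern most like Cldn8 were sought among all genes other than claudins. The measure was the correlation over the 8 arrays, which includes the difference between the groups. The 5 highest were Serinc3 (r = 0.987), Yif1a (0.971), Ect2 (0.970), Cd164 (0.959), and Atp5o (0.959). The 3 lowest were Ly6m (-0.986), Sptbn1 (-0.984), and Coq10b (-0.984). Within groups these correlations were between 0.840 and 0.965 for the first and between -0.963 and -0.942 for the second. The 8 genes were picked as extremes on these same arrays, so high values follow in part from the choice and were not tested. As claudins were left out of the search, their absence among these 8 genes carries no information.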

How the data were processed

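Colonic epithelial RNA of 8 mice was hybridized to 1 Affymetrix array each, and arrays were assigned to 4 BTWT and 4 BTDMAFF mice by their titles. The authors deposited log2 values of 45101 probe sets, from which the median of the 8 arrays had been subtracted for each probe set. Affymetrix Expression Console is named in the submitters' processing notes and GeneSpring in the methods, and how probes were summarized and normalized is not stated in either. Centered values hold no level and no detection call, and the number of arrays limits the precision.

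After 64 control probe sets were left out, 45037 were compared in R 4.3.3 by the lmFit and eBayes functions of limma 3.58.1 without covariates, with Benjamini-Hochberg adjustment over all of them. The thresholds of the study's figure legend (fold change 2, unadjusted p of 0.05) were also applied, to the p from limma. The array annotation gives 1 gene to 34945 probe sets, several to 932, of which 0 include a claudin, and none to 9160. All 9 claudin gene IDs were found in RefSeq. Outside the claudins, the probe set with the largest SD stood for a gene. Up to 6 genes of a list were named by an unadjusted p under 0.05, or else the 2 of smallest p. Of 176 list entries, 14 were not found. The claudins, their roles, and all lists were chosen with earlier results of these data known. Lgr5, Ocln, Tjp1, Epcam, and Ptprc were named outside this rule, after their values were seen. Genes most like Cldn8 were the 5 highest and 3 lowest by Pearson correlation, with claudins left out. The fit was tested on simulated data. Alternatives were quantile normalization, centering of arrays, array weights, a robust prior, the methods' t-test, a replicate block, a filter on SD, the mean over probe sets, and leaving out arrays.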

Additional observations from a re-analysis of the deposited data

Results flagged for a closer look

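In 88 groups of 4 mice (the 44 probe sets described by name, in each group), the gap of the highest or lowest mouse to the nearest of the others, divided by the range of the group, was compared with Dixon's 95% critical value for 4 values. It was above in 4, and chance gives about 1 in 20 groups. In BTDMAFF, replicate 4 lay above the other 3 mice for Cldn1 1437932_a_at (0.117 against -0.037 to -0.018, gap over range 0.877), for the leukocyte gene Cd4 (0.149 against -0.084 to -0.046, gap over range 0.837), and for the endothelial gene Emcn (0.054 against -0.036 to -0.024, gap over range 0.860). This array also had the highest median of all probe sets, 0.041, and is one of the pair that stood apart on the first principal component. In BTWT, replicate 2, the other of that pair, lay above the other 3 mice for Cldn14 (0.537 against -0.0092 to 0.017, gap over range 0.952).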

How the results depend on the processing

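Of the 17 probe sets, 12 kept their sign under every alternative they were run in (the SD filter left out those of Cldn1 and Cldn7). Cldn8 stayed higher in BTWT at an unadjusted p of at most 0.0051. Its adjusted p ran from 0.0144 to 0.782, passing only under array weights. The Cldn8 groups were also apart after quantile normalization and with centered arrays, whereas leaving out arrays could not make them overlap. The number of claudin probe sets at an unadjusted p of 0.05, 1 with all arrays, was 2 after quantile normalization, 3 under array weights, 3 with the replicate block, 2 without both arrays that stood apart, and 1 to 4 when single arrays were left out. At an adjusted p it was 0, and 1 under array weights, where 510 of all 45037 probe sets passed. Past fold change 2 it was 1 to 2 when single arrays were left out. Groups did not overlap for 1 to 5 probe sets when single arrays were left out and for 6 without both arrays apart, where 45.1% of all probe sets did not overlap. Without BTDMAFF replicate 4 alone, the 5 were Cldn8 and the 4 of Cldn1, beside 42.9% of all probe sets. Of the tight junction partner genes, 1 passed an unadjusted p of 0.05 with all arrays, beside 5.72% of all genes. The number was 2 with centered arrays and 13 under array weights, beside 5.25% and 26.9%. It was 0 with the methods' t-test, 2 with the replicate block, and 2 without both arrays apart, beside 4.22%, 6.90%, and 12.0%. By the mean over probe sets it was 4, and the share over all genes is not given. When single arrays were left out it was 0 to 3, beside 4.40% to 10.8%. Cgnl1 did not pass after quantile normalization, with the replicate block, or without both arrays apart. Nor did it pass without BTWT replicate 1, 2, or 3 or BTDMAFF replicate 1, 2, or 3.

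Signs turned in small values. Under array weights, Cldn3 was at 0.037 (1426332_a_at), 0.031 (1434651_a_at), and 0.030 (1451701_x_at). Without BTWT replicate 1 these were 0.016, 0.0081, and 0.0098, and the first was 0.026 without BTDMAFF replicate 4. Over the fits that left out an array, they ran from -0.16 to 0.026, -0.14 to 0.0081, and -0.12 to 0.0098, Cldn15 from -0.076 to 0.42, and Cldn7 from -0.019 to 0.028. Cldn7 was at -0.026 after quantile normalization, -0.017 with centered arrays, and -0.021 without both arrays apart. The cause was not tested.

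Replicate numbers are shared by the groups, but only the replicate 1 arrays deviated together (residual correlations of 0.392, -0.040, 0.033, and -0.266 for replicates 1 to 4), so the numbers were not taken as a pairing. With the replicate number as a block, Cldn8, Cldn2 1417232_at (unadjusted p = 0.0377), and Cldn23 (unadjusted p = 0.0055) passed, and Cldn8 had an adjusted p of 0.488. The unknown normalization and the lack of levels limit all values.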
